A study of Rattus norvegicus with 2 samples.

Results

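Ion channel genes were followed in A7r5 cells, a line of vascular smooth muscle cells from embryonic rat aorta. The set holds every probe set whose single annotated gene symbol marks a potassium (Kcn), calcium (Cacn), sodium (Scn), HCN, chloride (Clcn, Clic) or TRP channel gene, or a ryanodine or inositol trisphosphate receptor (Ryr, Itpr). It comprised 144 of the 10411 genes named on the array, read by 200 of the 12783 probe sets with a single gene. The array held 15923 probe sets in all. The GLUT1 cells carried an adenovirus with the human GLUT1 cDNA and the control cells an empty adenovirus, both for 72 hours at a multiplicity of infection of 10 and in medium with 5.5 mM glucose. Each group was 1 RNA pool of 3 isolation days on 1 array, so no value below has a replicate check and no p-value was computed. Both groups were infected, and uninfected cells were not analysed here.

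In vascular smooth muscle the membrane potential decides how much calcium enters the cell. Potassium channels let potassium leave and hold the potential negative, and voltage-gated calcium channels open when it becomes less negative. Calcium that enters, or that inositol trisphosphate and ryanodine receptors release from the sarcoplasmic reticulum, binds calmodulin and starts contraction. Potassium channels closed by ATP couple this system to metabolism. A7r5 cells are widely used in studies of calcium channel currents and of the calcium response to vasopressin.

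The values are the deposited linear intensities, whose distributions were already matched: the median was 508 and the quartiles were 175 and 1507.5 on either array. Among marker genes, 9 of 11 listed smooth muscle genes exceeded the array median on both arrays. Acta2, which encodes smooth muscle actin, gave 16687 in GLUT1 cells and 16303 in control cells. Myh11, the smooth muscle myosin heavy chain, was dim at 228 in GLUT1 cells and 227 in control cells. None of the 6 endothelial and 5 leukocyte genes on the array passed the median on both arrays. Of 12 cardiac genes only Tnnc1 did, and of 11 neuronal genes Eno2, Map2 and Syp did. The summed intensity of the brightest probe set of each neuronal gene was 4991 in GLUT1 cells and 5293 in control cells, and Rbfox3 and Snap25 were at or below an intensity of 175 on both arrays. Whether the markers of other cell types bear on the channel values was not tested. In RNA pooled from many cells, fewer cells of a kind and less RNA per cell cannot be told apart.

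Most channel probe sets were dim on both arrays. Only 33 of the 200, or 16.5%, exceeded the median of the array on both arrays, whereas 52.7% of all probe sets with a single gene did so. These 33 probe sets read 28 of the 144 genes. A further 6 probe sets passed the median on 1 array only, 79 lay below it on both arrays but not at the floor on both, and 82, or 41%, were at or below the floor on both. The floor is the 25th percentile of both arrays together, an intensity of 175, and 19.7% of all probe sets with a single gene were at or below it on both arrays. The median intensity of the channel probe sets was 183.5 in GLUT1 cells and 189 in control cells. The brightness of a probe set depends on its probes as well as on the transcript, so a dim probe set does not show that a channel is absent, and brightness does not rank the channels by abundance. No call of present or absent was used.

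**Figure D1:**
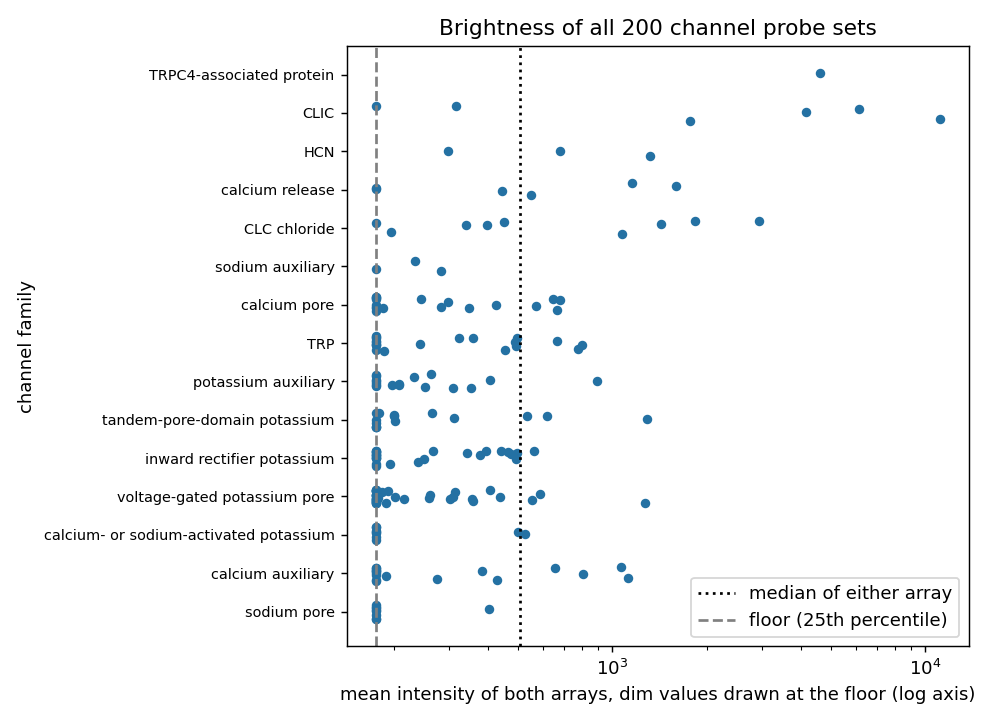
Mean deposited intensity of both arrays (x axis, log scale) for each of the 200 channel probe sets, by family (y axis). Each point is a probe set, values below the floor of 175 are drawn at the floor, and the dotted line is the array median of 508. CLIC and HCN probe sets lie mostly to the right of the median and most sodium channel probe sets at the floor.

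The share of bright probe sets differed widely by ion. Sodium channels stood at 0 of 12 probe sets above the median, and 9 of the 12 were at the floor on both arrays. Potassium channels, the largest group with 108 probe sets of 73 genes, had 8 probe sets above the median, or 7.41%. Calcium channel subunits had 8 of 35, or 22.9%, and TRP channels 3 of 20, or 15%. The chloride group had 8 of 15, or 53.3%, near the 52.7% of all probe sets with a single gene. Clcn3 and Clic4 gave 3 each of these 8. HCN channels had 2 of 3 and the calcium release receptors 3 of 6. The remaining probe set above the median belonged to Trpc4ap, whose symbol fits the selection although it encodes a TRPC4-associated adaptor protein and not a channel.

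No channel probe set above the median differed by 2-fold between GLUT1 and control cells. The count was 0 of 33 higher, where 0.0149% of all probe sets with 1 gene above the median were, and 0 of 33 lower, where 0% were. The log2 ratios, GLUT1 over control after median scaling, ran from -0.36 to 0.15 with a median of -0.04, and 30 of the 33 lay within 0.25 of 0. Over the 6733 probe sets with a single gene above the median, the median was 0.00 and 93.4% lay within 0.25 of 0. Channel probe sets had a negative ratio in 22 of 33 cases and a positive one in 11, beside 49.4% negative over all. The 33 are not independent, since Clcn3 and Clic4 contribute 3 probe sets each and Trpm7 contributes 2.

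The SD of the channel ratios was 0.12, and that of all probe sets with a single gene above the median was 0.14. The channel probe sets were dimmer, with a median of the mean intensity of 893.5 against 1584.5 for all. Among those with a mean intensity under 1000, the SD was 0.15 for 17 channel probe sets and 0.17 for all 1897. In that range 82.4% of the channel probe sets and 86.4% of all lay within 0.25 of 0. As a second yardstick, chosen after the values were seen, each ratio was set against the local spread, a scaled median absolute deviation of the ratios of the 501 probe sets nearest in brightness. Above the median, 0 of 33 channel probe sets lay more than 2 local spreads higher, where 2.88% of all did, and 1 of 33, or 3.03%, lay more than 2 local spreads lower, where 2.67% of all did. The channel shares were thus near those of the whole array.

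**Figure D2:**
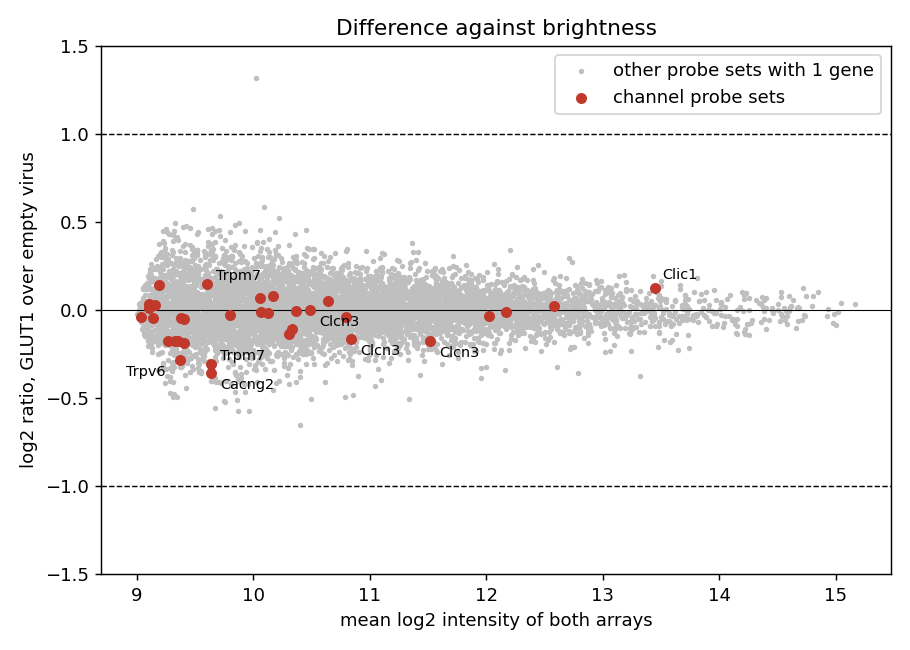
Log2 ratio, GLUT1 over empty virus (y axis), against the mean log2 intensity of both arrays (x axis) for probe sets above the median on both arrays. Red points are the 33 channel probe sets, grey points the other probe sets with a single gene, and dashed lines mark 2-fold. All red points lie between -0.36 and 0.15, far inside the dashed lines.

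Among the potassium channels, 3 voltage-gated pore genes were bright. Kcnh3, a brain-type member of the ether-a-go-go family, was read at 1208 in GLUT1 cells and 1329 in control cells, a log2 ratio of -0.14. Kcnh6, of the same family, was read at 615 in GLUT1 cells and 557 in control cells, a log2 ratio of 0.14 and the highest of any potassium channel above the median. Kcnd1, which encodes a pore subunit of transient A-type current, was read at 554 in GLUT1 cells and 549 in control cells. Both ether-a-go-go differences were under 1 local spread and ran in opposite directions. The family of 41 voltage-gated pore probe sets had 21 at the floor on both arrays.

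Tandem-pore-domain channels, which carry background potassium current, gave Kcnk12 and Kcnk6. Kcnk12 was read at 1243 in GLUT1 cells and 1341 in control cells, a log2 ratio of -0.11. Kcnk6 was read at 581 in GLUT1 cells and 656 in control cells, a log2 ratio of -0.17, and its second probe set was below 0 on both arrays, at -30 in GLUT1 cells and -48 in control cells. Kcnk3, the acid-sensitive channel TASK-1 of vascular muscle, was just outside the limit at 498 in GLUT1 cells and 565 in control cells. Its other probe sets gave 288 and 191 in GLUT1 cells, against 337 and 95 in control cells. The former was also lower in GLUT1 cells. The latter was higher, but its control value lay below the floor.

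The ATP-sensitive channel is built of pore subunits from the inward rectifier family. Kcnj11 was the single member of that family, out of 26 probe sets of 15 genes, above the median on both arrays. Its bright probe set was read at 553 in GLUT1 cells and 572 in control cells, a log2 ratio of -0.05, and its other probe sets at 258 and 191 in GLUT1 cells, against 242 and 155 in control cells. Kcnj8, the pore subunit best known from vascular smooth muscle, was near the floor at 187 in GLUT1 cells and 159 in control cells. Kcnj2, a strong inward rectifier, was equally dim at 185 in GLUT1 cells and 143 in control cells. A probe set each of Kcnj15 and Kcnj4 passed the median on 1 array only. Kcnj15 was read at 536 in GLUT1 cells and 451 in control cells, and Kcnj4 at 456 in GLUT1 cells and 538 in control cells. The other probe set was dim in both genes, for Kcnj15 at 31 in GLUT1 cells and 59 in control cells. For Kcnj4 it was at 153 in GLUT1 cells and 180 in control cells.

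The large-conductance calcium-activated channel, a brake on contraction in arteries, was dim on these arrays. The 3 probe sets of its pore gene Kcnma1 were read at 90, 182 and 46 in GLUT1 cells, against 196, 104 and 59 in control cells. These values lie around the floor and gave no common direction. Kcnmb1, its smooth muscle beta subunit, was read at 180 in GLUT1 cells and 154 in control cells. Kcnmb4, a beta subunit known mainly from neurons, was just below the limit at 488 in GLUT1 cells and 512 in control cells. Kcnt1, a sodium-activated potassium channel, was the dimmest probe set inside the limit, at 518 in GLUT1 cells and 532 in control cells, a log2 ratio of -0.04. Kcnn4, the intermediate-conductance channel, was at 52 in GLUT1 cells and -19 in control cells.

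Other potassium channels of vascular muscle lay low. Kcna5, a delayed rectifier, was read at 155 in GLUT1 cells and 151 in control cells. Of the M-current family, Kcnq1 was read at 198 in GLUT1 cells and 122 in control cells, and the Kcnq3 probe sets gave 95 and 120 in GLUT1 cells, against 138 and 124 in control cells. Kcnip3, a calcium-binding protein that modulates A-type channels and also acts as a transcriptional repressor, was the bright one among the auxiliary subunits, at 885 in GLUT1 cells and 902 in control cells, a log2 ratio of -0.03. Its second probe set was read at 244 in GLUT1 cells and 222 in control cells.

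Of the voltage-gated calcium channel pores, 4 genes had a probe set above the median. Cacna1c, the L-type pore that carries calcium entry for contraction, was read at 577 in GLUT1 cells and 567 in control cells, a log2 ratio of 0.03. Its second probe set was dimmer, at 262 in GLUT1 cells and 303 in control cells. Cacna1d, another L-type pore, was read at 667 in GLUT1 cells and 691 in control cells, a log2 ratio of -0.05. Cacna1g, a T-type pore that opens at more negative potentials, was read at 606 in GLUT1 cells and 684 in control cells, a log2 ratio of -0.17. Cacna1a, the P/Q-type pore known from nerve terminals, had 1 of 4 probe sets above the median, at 656 in GLUT1 cells and 678 in control cells. Cacna1h, the other T-type pore of vascular muscle, was at the floor with 74 in GLUT1 cells and 13 in control cells.

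The auxiliary calcium channel subunits gave the lowest ratio of all channels above the median. Cacng2, which encodes stargazin and is known chiefly as an auxiliary subunit of AMPA receptors in neurons, was read at 704 in GLUT1 cells and 902 in control cells, a log2 ratio of -0.36. Relative to the local median this was -2.12 local spreads, the one channel value past 2 local spreads. Its other probe set was at 157 in GLUT1 cells and 220 in control cells. Cacnb2 and Cacnb3, beta subunits that bring the pore to the membrane, were read at 615 and 1111 in GLUT1 cells, against 695 and 1127 in control cells. The log2 ratio was -0.18 for this Cacnb2 probe set and -0.02 for Cacnb3. Other Cacnb2 probe sets were read at 446 and 121 in GLUT1 cells, against 411 and 138 in control cells. The former was higher in GLUT1 cells, a log2 ratio of 0.12, and the latter was at the floor on both arrays. Cacna2d1, an extracellular subunit that raises channel number at the surface and binds gabapentin, was read at 1092 in GLUT1 cells and 1041 in control cells, a log2 ratio of 0.07.

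Release channels of the sarcoplasmic reticulum gave bright inositol trisphosphate receptors and dim ryanodine receptors. Itpr1 was read at 1622 in GLUT1 cells and 1564 in control cells, a log2 ratio of 0.05. Itpr3 was read at 1184 in GLUT1 cells and 1122 in control cells, a log2 ratio of 0.08. The brighter Itpr2 probe set was read at 555 in GLUT1 cells and 543 in control cells, a log2 ratio of 0.03, and the dimmer at 398 in GLUT1 cells and 487 in control cells. Each of the 3 receptors thus had its brightest probe set slightly above 0, by at most 0.514 local spreads. Ryr1 was at 66 in GLUT1 cells and 107 in control cells, and Ryr2, the cardiac form, at -25 in GLUT1 cells and 42 in control cells.

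The brightest probe set, of Clic1, and the next, of Clic4, belonged to the chloride group, and that of the adaptor gene Trpc4ap came after them. Clic1, a chloride intracellular channel protein that also occurs as a soluble protein with a glutathione transferase fold, was read at 11642 in GLUT1 cells and 10682 in control cells, a log2 ratio of 0.13 and 1.73 local spreads. It was at or above 98.3% of all probe sets on the GLUT1 array and 98.0% on the control array. Clic4, a relative with roles in vesicle and tube formation, was read by 3 bright probe sets at 6168, 4111 and 1750 in GLUT1 cells, against 6082, 4216 and 1802 in control cells. Their log2 ratios were 0.02, -0.04 and -0.04. Clic3 was dim at 363 in GLUT1 cells and 270 in control cells, and Clic5 was at the floor.

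The CLC family holds both plasma membrane channels and chloride-proton exchangers of endosomes and lysosomes. Clcn3, an endosomal exchanger, was read by 3 bright probe sets at 2755, 1730 and 1435 in GLUT1 cells, against 3114, 1940 and 1433 in control cells. The log2 ratios were -0.18, -0.16 and 0.00, or -1.67, -1.46 and -0.03 local spreads. Clcn6, a late endosomal member, was read at 1070 in GLUT1 cells and 1079 in control cells. Clcn7, the lysosomal member, was below the median at 461 in GLUT1 cells and 333 in control cells. Clcn4 and Clcn5 were below it too, at 432 and 207 in GLUT1 cells, against 469 and 186 in control cells.

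HCN channels open on hyperpolarisation and pace the heart and some neurons. Hcn2 was read at 1316 in GLUT1 cells and 1324 in control cells, a log2 ratio of -0.01. Hcn3 was read at 636 in GLUT1 cells and 725 in control cells, a log2 ratio of -0.19. Hcn4, the main pacemaker isoform of the heart, was read at 443 in GLUT1 cells and 154 in control cells. It stayed below the median on both arrays and so outside the 2-fold comparison. With the control value raised to the floor of 175, its log2 ratio was 1.34, which was the only difference of 2-fold among the 85 channel probe sets that were not above the median on both arrays and not at the floor on both. Over all 3532 such probe sets with a single gene, 7 were higher and 4 lower by 2-fold. Hcn4 had 1 probe set, and no second one was there to set beside it.

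TRP channels are cation channels that respond to lipids, temperature, stretch or emptied calcium stores. Trpm7, which joins a magnesium- and calcium-permeable pore to a kinase, was read by 2 bright probe sets that pointed opposite ways. They gave 816 and 716 in GLUT1 cells, against 737 and 886 in control cells. The log2 ratios of 0.15 and -0.31 are the highest and the second lowest of all 33 channel probe sets above the median. Trpv6, a calcium-selective epithelial channel, was read at 599 in GLUT1 cells and 729 in control cells, a log2 ratio of -0.28. Trpc1 passed the median on the GLUT1 array only, at 540 in GLUT1 cells and 441 in control cells, a log2 ratio of 0.29. Trpm4, Trpv2 and Trpv4 were read at 341, 358 and 236 in GLUT1 cells, against 308, 361 and 136 in control cells. Trpc4 and Trpc6, receptor-operated channels of smooth muscle, were at the floor on both arrays. The adaptor gene Trpc4ap was read at 4589 in GLUT1 cells and 4628 in control cells.

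**Figure D3:**
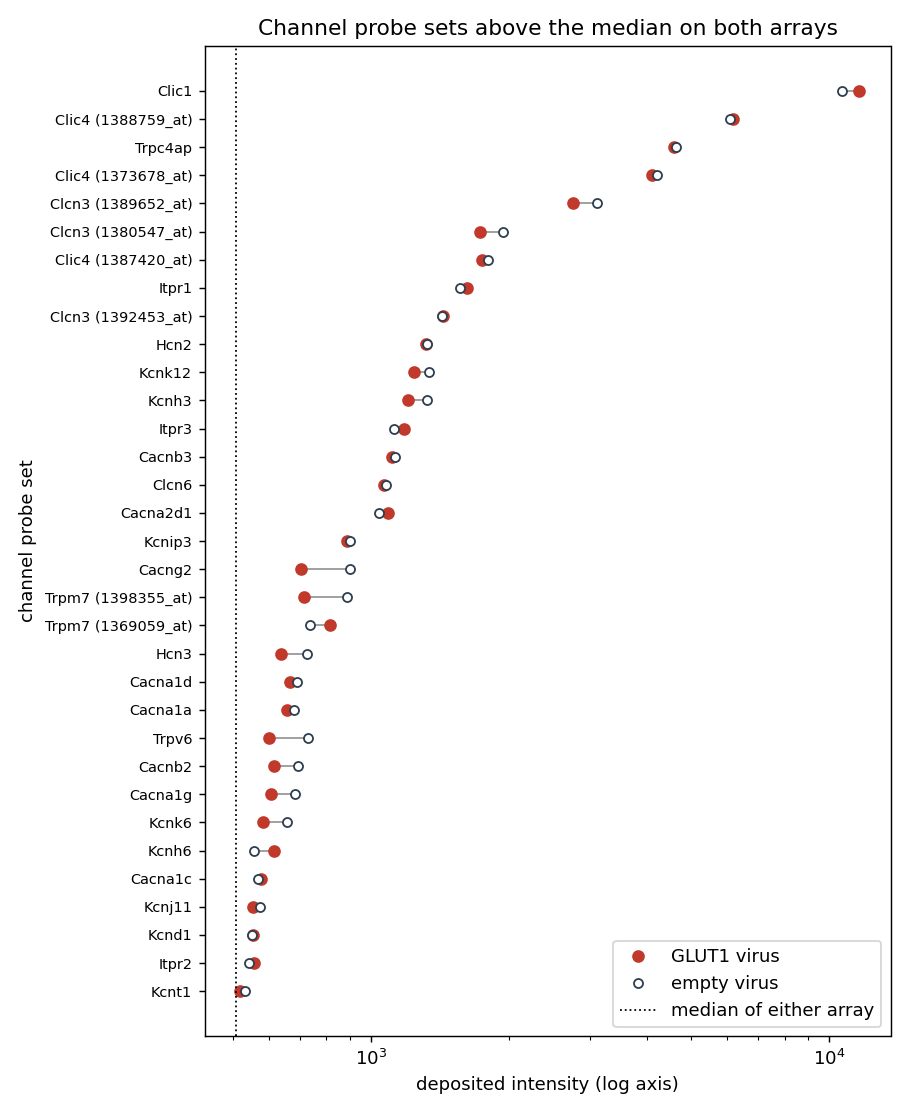
Deposited intensity (x axis, log scale) of each channel probe set above the median on both arrays (y axis), with GLUT1 virus as filled and empty virus as open circles and the array median of 508 dotted. Genes with several bright probe sets carry the probe set name. The circles of most probe sets nearly coincide, and Cacng2, Trpv6 and the Trpm7 probe set that is lower in GLUT1 cells show the widest gaps.

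Genes read by several probe sets gave a check inside the arrays. Of the 144 genes, 36 had more than 1 probe set. In 24 of these no probe set was above the median, in 9 some were, and in 3 all were. The 3 genes were Clcn3, Clic4 and Trpm7, and in each the ratios of the bright probe sets had mixed signs, with a range of 0.18 for Clcn3, 0.06 for Clic4 and 0.45 for Trpm7. For Clcn3 the positive sign rests on 1435 in GLUT1 cells against 1433 in control cells, and relative to the local median all 3 of its probe sets were negative. The 0.45 range within Trpm7 was wider than the distance of any other channel above the median from 0. Brightness differed far more within some genes: the Cacna1d probe sets had mean intensities between 86 and 679, and those of Cacna1a between 102 and 667.

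**Figure D4:**
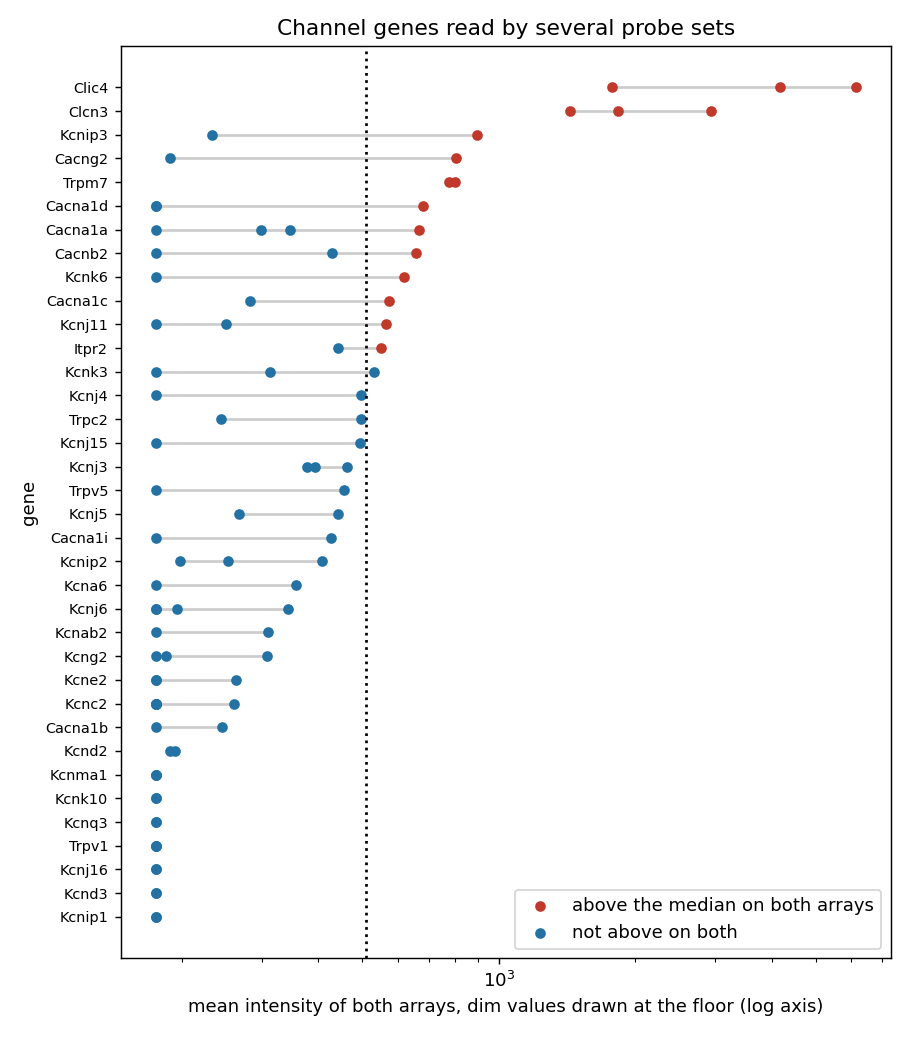
Mean deposited intensity of both arrays (x axis, log scale) for every probe set of the 36 channel genes with more than 1 probe set (y axis), with values below 175 drawn there and the array median dotted. Red points are above the median on both arrays. In several genes, such as Cacna1d and Kcnip3, the median line separates probe sets of a single gene.

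The limit at the array median cut through a dense range of intensities. Just inside it lay Kcnt1, Itpr2, Kcnd1 and Kcnj11, all between 518 and 572. Just outside lay Kcnk3, Trpm1, Kcnmb4 and Kcnj14. Trpm1 was read at 489 in GLUT1 cells and 488 in control cells, and Kcnj14 at 475 in GLUT1 cells and 473 in control cells.

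Below the limit, many probe sets had ratios further from 0, in either direction, than any channel above it. Those with a log2 ratio of at least 0.5 either way are given here, apart from Hcn4, given above. Cacng4 was read at 330 in GLUT1 cells and 220 in control cells, a log2 ratio of 0.59, and Kcnh8 at 487 in GLUT1 cells and 326 in control cells, a log2 ratio of 0.58. At the other end Trpc2 was read at 177 in GLUT1 cells and 310 in control cells, a log2 ratio of -0.81, but its brighter probe set gave 470 in GLUT1 cells and 521 in control cells. Kcnip2 was read at 189 in GLUT1 cells and 315 in control cells, a log2 ratio of -0.74, and its other probe sets at 169 and 438 in GLUT1 cells, against 226 and 377 in control cells, the first lower and the second higher in GLUT1 cells. Also lower were 1 of the Kcnc2 probe sets and probe sets of Cacna1b, Kcna1 and Kcne3. Their log2 ratios were -0.64, -0.57, -0.55 and -0.53, the last with the GLUT1 value raised to the floor. These genes were picked after their values were seen.

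Genes outside the channel families that move or store the same ions were set beside them. Of 29 calcium handling genes on the array, 16 had a probe set above the median, and 0 of their 20 such probe sets differed by 2-fold either way. The median log2 ratio was 0.02, with 12 positive and 8 negative. Orai1, the pore of store-operated calcium entry, had the highest ratio of this list, at 839 in GLUT1 cells and 704 in control cells, a log2 ratio of 0.25. The lowest was a probe set of Vdac1, a channel of the outer mitochondrial membrane, at 1528 in GLUT1 cells and 1865 in control cells, a log2 ratio of -0.29. At -2.41 local spreads it was the one value of the list past 2 local spreads, and the other Vdac1 probe set gave 5506 in GLUT1 cells and 5221 in control cells. Stim1, the sensor that opens Orai1, was read at 1242 in GLUT1 cells and 1245 in control cells. Atp2b1, a plasma membrane calcium pump, was read at 2356 in GLUT1 cells and 2641 in control cells, a log2 ratio of -0.16. The brightest Atp2a2 probe set, for the reticulum calcium pump, was read at 4096 in GLUT1 cells and 3987 in control cells.

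Of 25 genes of sodium, potassium and anion transport on the array, 11 had a probe set above the median, and 0 of 13 probe sets differed by 2-fold. The median log2 ratio was -0.04, with 5 positive and 8 negative. Atp1b1, a sodium pump subunit, had probe sets at 2458 and 3344 in GLUT1 cells, against 2107 and 3446 in control cells, which differ in sign. The ratio of the dimmer Atp1b1 probe set, 0.22 or 2.07 local spreads, was the highest of this list and the one past 2 local spreads. Slc12a2, the sodium-potassium-chloride cotransporter, was read at 3572 in GLUT1 cells and 3580 in control cells. Gja1, the gap junction protein connexin 43, was read by its brightest probe set at 7338 in GLUT1 cells and 7841 in control cells. Another Gja1 probe set, at 686 in GLUT1 cells and 834 in control cells, had the lowest log2 ratio of the list, -0.28.

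The promoters of the channel genes were examined for CG dinucleotides, which are frequent in CpG island promoters of widely expressed genes. RefSeq promoters of build GRCr8, covering 250 bases before to 50 bases after the start, were matched for 107 of 144 genes. The 20 matched genes with a bright probe set had a median of 28.5 CG dinucleotides and a median GC content of 67.8%. The 46 genes with none above the median but not all at the floor had 16.5, and the 41 genes with all probe sets at the floor had 10. Over all genes on the array, those with a probe set above the median had 23 and the rest 13. Bright genes thus had the higher median both among channels and over the array, where the rest were not divided further. This is a description with no test, and no statement about expression is drawn from a single promoter.

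The number of CG dinucleotides in a matched channel promoter ran from 1 in Kcna4 and Trpv5 to 66 in Cacna1d. Scn8a, at the floor on both arrays, had 60. Promoters of 3 members are given as examples, with each CG dinucleotide in capitals. They are Clcn3, with 3 bright probe sets and 33 CG dinucleotides (chr16:34137754-34138053, plus strand), Kcna5, at the floor with 6 (chr4:161043760-161044059, minus strand), and Cacng2, the lowest ratio above the median, with 7 and a GC content of 39.0% (chr7:111577708-111578007, minus strand).
Clcn3: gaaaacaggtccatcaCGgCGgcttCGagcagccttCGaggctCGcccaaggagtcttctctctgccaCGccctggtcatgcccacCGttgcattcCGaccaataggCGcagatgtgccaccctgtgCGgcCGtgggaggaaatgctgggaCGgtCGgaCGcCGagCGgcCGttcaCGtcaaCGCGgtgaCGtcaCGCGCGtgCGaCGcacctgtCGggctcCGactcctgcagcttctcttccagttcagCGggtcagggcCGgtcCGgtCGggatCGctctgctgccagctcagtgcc
Kcna5: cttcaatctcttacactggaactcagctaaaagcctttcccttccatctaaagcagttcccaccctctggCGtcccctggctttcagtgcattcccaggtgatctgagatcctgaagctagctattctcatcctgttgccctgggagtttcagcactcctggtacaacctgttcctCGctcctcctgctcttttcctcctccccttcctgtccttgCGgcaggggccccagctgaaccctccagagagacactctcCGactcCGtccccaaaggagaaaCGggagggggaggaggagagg
Cacng2: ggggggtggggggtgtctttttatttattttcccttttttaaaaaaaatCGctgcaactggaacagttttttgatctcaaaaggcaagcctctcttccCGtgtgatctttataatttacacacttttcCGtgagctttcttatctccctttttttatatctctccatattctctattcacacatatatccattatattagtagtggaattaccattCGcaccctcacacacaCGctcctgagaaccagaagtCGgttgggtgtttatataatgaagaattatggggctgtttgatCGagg

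The letters TATAAA, searched on both strands, occurred in 1 of the 20 matched promoters of genes with a bright probe set, and that gene was Cacng2. They occurred in 1 of the 46 promoters of the middle group and in 5 of the 41, or 12.2%, of the group at the floor. Among all genes on the array they occurred in 6.21% of the promoters of genes with a probe set above the median and in 12.3% of the rest.

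**Figure D5:**
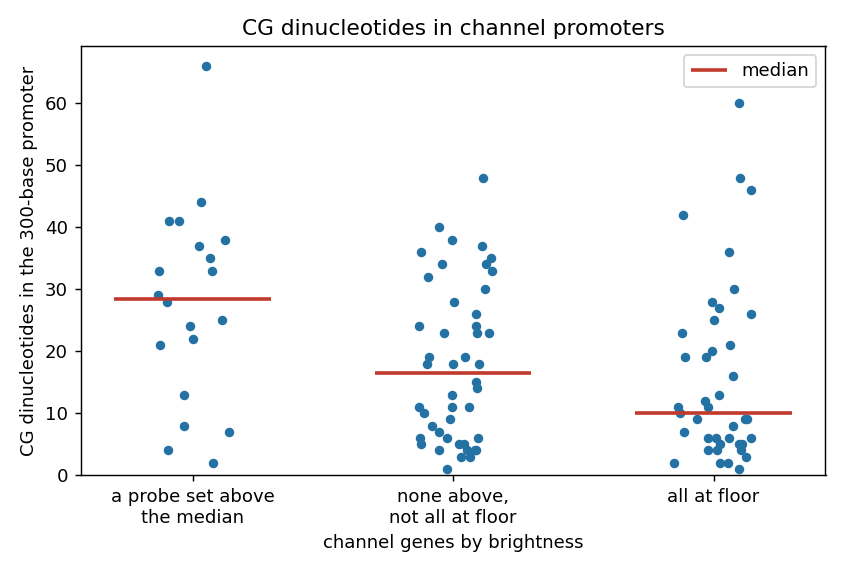
Number of CG dinucleotides in the RefSeq promoter of each matched channel gene (y axis), by the brightness of its probe sets (x axis). Each point is a gene and red bars are medians, at 28.5, 16.5 and 10 from left to right, with wide overlap between the groups.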

How the data were processed

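The authors deposited 1 linear intensity per probe set and array in whole numbers. The probe summary, background correction, normalization and software were details not given in the sources used here. Symbols came from the platform annotation, and the gene ID of all 200 channel probe sets was in the current rat table (GRCr8). The only probe set with several genes and a channel among them was annotated to Trpv1 and Trpv4, both channel genes, and was left out. It was read at 224 in GLUT1 cells and 36 in control cells.

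The array median was taken over all 15923 probe sets. GLUT1 values were multiplied by a factor that brought the median log2 ratio of the probe sets above it to 0, a shift of 0.0013 log2 units. The pooled 25th percentile, an intensity of 175, served as floor before log2 was taken. A difference is GLUT1 over control, and 2-fold was the size threshold. Local spread used 501 probe sets. With 1 array a group, the number of arrays limits the precision and no test was possible. The computations were tested on simulated data and ran in Python 3.11.15 with numpy 2.4.6 and pandas 2.3.3.

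The members and the gene lists were chosen with earlier results of these data known. The text names every channel gene with a probe set above the median, a list of vascular smooth muscle channels at any brightness, and, where stated, genes picked after their values were seen.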

Additional observations from a re-analysis of the deposited data

Results flagged for a closer look

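Hcn4 is listed here because it was too dim for the 2-fold comparison and yet was more than 2-fold above the control array. It was read at 443 in GLUT1 cells and 154 in control cells, a log2 ratio of 1.34 with the control at the floor. It rests on 1 probe set and 1 array a group.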

How the results depend on the processing

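No paired analysis was possible because only 1 array was made from each pool. With the brightness limit at the 75th percentile, 8 channel probe sets in place of 33 passed on both arrays, and 7 in place of 13 of the sodium, potassium and anion transport list. With no brightness limit, 1 channel probe set, Hcn4, was 2-fold higher in place of 0. With 2 local spreads in place of 2-fold, a rule chosen after seeing the data, 1 channel probe set, Cacng2, was lower in place of 0. Counts of 0 higher and 0 lower stayed at 0 with a threshold of 1.5-fold or 3-fold, other floors, no scaling and quantile normalization, and a bright value is untouched by a floor, so those settings say little about stability. The ratios of the 33 bright probe sets moved by at most 0.0086 under these scalings and floors. The distributions of the deposited values were already matched, so the scalings had little to change, and this small move says little about stability either.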
